A study of Mus musculus with 4 samples.

Results

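Called sites annotated to the 5' untranslated region (5' UTR), the stretch of a messenger RNA between its capped start and the start codon, were described in m6A-eCLIP data of mouse macrophages. A site belonged to the set when the authors' table gave its position as 5' UTR, and each mouse was kept separate. This rule took 8671 of 45668 called sites in mouse 1 (19.0%) and 8913 of 47747 in mouse 2 (18.7%). Together they covered 10533 positions of 55333 called in at least 1 mouse. The sites lay in 4128 genes of mouse 1 and 4171 genes of mouse 2, with 68 and 63 sites left out of gene counts because several gene names were joined.

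The cells were bone marrow-derived macrophages (BMDM) of 2 wild-type mice, all given lipopolysaccharide (LPS), a bacterial cell wall component sensed by Toll-like receptor 4, for 3 h. Each mouse contributed 1 immunoprecipitated (IP) and 1 input library, 4 libraries in all, from poly(A)-selected RNA. No resting cells, no animals of another genotype and no second IP of the same mouse were among these samples. The table names also hold NTC, a term left unexplained by the labels. The sources used here do not give the age of the mice. A score and a fold per site were the authors' own, and the fold divides the read starts of the IP library by those of the input library. The tables hold no read numbers, so depth is unknown and a single fold has no error. Both mice are printed side by side instead. All 15 macrophage markers had a called site in both mice, against 2 of 15 lymphocyte markers and 1 of 15 stromal, endothelial and erythroid markers, none of them in a 5' UTR. Of 15 neutrophil and mast cell markers, 6 had a site in both mice, each with a 5' UTR site.

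N6-methyladenosine (m6A) is placed inside messenger RNA by the METTL3-METTL14 methyltransferase, which prefers an adenosine with a purine before it and a cytidine after it. It is found mostly in long exons, near stop codons and in 3' UTRs. A related mark, m6Am, sits on the adenosine next to the cap, whose ribose is also methylated, and is placed by the cap methyltransferase PCIF1. Antibodies raised against m6A also bind m6Am, so an antibody-based map of the 5' UTR can hold both marks, and the tables do not name the mark of a site. Transcription by RNA polymerase II often begins at an adenosine after a pyrimidine, the core of the initiator element.

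The following windows show the difference in sequence that the results turn on. Each has 21 bases on the transcript strand, 5′ to 3′, from the RefSeq promoter table of GRCm38.p6, whose chromosomes have the coordinates of mm10. The capitals mark the base before the site, the site and the base after it. The first set holds the 6 genes with the highest mean log2 folds among first-base sites that a promoter window covers. There the middle capital is the annotated first base of the transcript.
Ap2s1: gccggaagtCAGttctagccc
Psmb3: tgagaaagcCAGagccggttt
Dusp2: aagagccccCAGaaccgtcag
Tnfaip8l2: gtgagctctCAGaaacatcca
Txnrd1: ctttatcctCAGtttgcttcc
Tspan31: ttaaagcgaTAGacgcggttg

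These windows lie at chr7:16738434-16738454 (plus strand) for Ap2s1, chr11:97703424-97703444 (plus) for Psmb3 and chr2:127336149-127336169 (plus) for Dusp2. Those of Tnfaip8l2, Txnrd1 and Tspan31 lie at chr3:95142344-95142364 (minus), chr10:82859196-82859216 (plus) and chr10:127070251-127070271 (minus). In every window the site is an adenosine after a pyrimidine and before a guanosine. None of the 6 has the cytidine after the adenosine that the m6A consensus asks for. Ap2s1, Psmb3 and Dusp2 are at the single gene start of the RefSeq gene table, and the other 3 are at a further start that the promoter table lists for the gene.

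The second set shows examples of strong 5' UTR sites downstream of a start, in Ybx1, Commd1, Socs1 and Cxcl3. Rbbp6 is added as a case that holds the m6A consensus. These examples were picked without a rule and do not stand for all such sites.
Ybx1: cattctcgcTAGttcgatcgg
Commd1: ggccctcctTAGccatggcgg
Socs1: gggcagcagCAGagagaactg
Cxcl3: ctggagcccCAGatctcacca
Rbbp6: taacgtgtgGACtgaccgcta

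They lie at chr4:119294490-119294510 (minus), chr11:22982249-22982269 (minus), chr16:10785523-10785543 (minus), chr5:90786093-90786113 (plus) and chr7:122970607-122970627 (plus). The first 4 have a pyrimidine before the adenosine and a guanosine after it, and only Rbbp6 of this set has a purine before and a cytidine after. Other strong downstream sites varied: a guanosine followed in Pdap1 and Pdcd6ip, but a thymidine in Dcxr and Tma7. Over all 5' UTR sites with sequence, a guanosine followed at 47.7% in mouse 1 and 47.5% in mouse 2. For contrast, 3 sites that the authors' tables place in a 3' UTR and that a promoter window happens to cover had the consensus.
Pcif1: gactgctagGACtcagcctca
Dnajc30: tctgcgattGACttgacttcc
Ncf1: aaaggacagGACtgggttaat

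They lie at chr2:164891159-164891179 (plus), chr5:135064977-135064997 (plus) and chr5:134221615-134221635 (minus). Pcif1, the gene of the cap methyltransferase, had folds of 80.2 and 61.6 at this site in mouse 1 and mouse 2.

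Most 5' UTR sites were called at the same base in both mice. Of the 5' UTR sites of mouse 1, 7129 (82.2%, exact 95% interval 81.4% to 83.0%) were called in mouse 2, against a background of 83.4% over all called sites of mouse 1. Of those of mouse 2, 7104 (79.7%, 78.9% to 80.5%) were called in mouse 1, against 79.8% over all its sites. Both shares lie near the background. These intervals cover counting error only, and sites of a gene are not independent. The other mouse's table gave a different annotation to 78 and 53 of these shared sites, which left 7051 sites in 3544 genes annotated as 5' UTR in both. Sites found in 1 mouse only numbered 1542 in mouse 1 and 1809 in mouse 2. Their median score was 15.5 and 16.2, against 31.7 and 33.1 for shared sites, and the tables list no score below 10. Their median fold was 7.52 and 7.06, against 11.3 and 11.6.

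Over the 7051 sites, the log2 folds of the mice correlated with r = 0.70 (Pearson) and rho = 0.67 (Spearman). These are descriptions across sites that come from the same 4 libraries, and they carry no p-value. The median absolute difference between mice was 0.55 on the log2 scale, which is the spread to hold against any difference between single sites. Of the shared sites, 3946 (56.0%) reached a fold of 8 in both mice. Another 853 did so in mouse 1 alone, 797 did so in mouse 2 alone, and 1455 stayed below it in both.

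**Figure D1:**
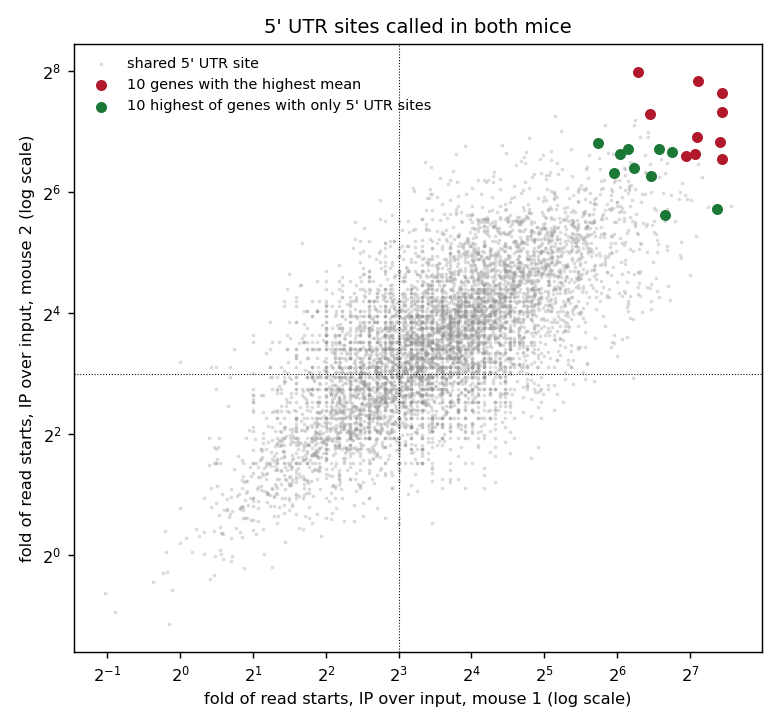
Authors' fold (IP over input) of each 5' UTR site called in both mice (grey points, 7051 sites), mouse 1 on the horizontal and mouse 2 on the vertical log scale. Dotted lines mark a fold of 8, red points the 10 genes with the highest mean log2 fold, and green points the 10 highest among genes with only 5' UTR sites; the points scatter around the diagonal with a Pearson r of 0.70, and low folds form a grid of repeated values.

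Enrichment by the antibody was lower in 5' UTRs than in coding sequence and 3' UTRs. A site counted as enriched where its fold reached 8, which is 3 on the log2 scale. This held for 5610 of the 5' UTR sites of mouse 1 (64.7%, 63.7% to 65.7%) and 5514 of those of mouse 2 (61.9%, 60.8% to 62.9%). The background over all called sites was 81.7% in mouse 1 and 79.1% in mouse 2. Against coding and 3' UTR sites combined, of which 87.7% and 85.2% were enriched, the odds ratio was 0.256 in mouse 1 and 0.282 in mouse 2 (Fisher's exact test, two-sided, p below the smallest number the computation can hold). This p-value treats sites of a gene as independent, which they are not. With only the strongest site per gene and kind of position, the difference was smaller. The shares were then 81.5% against 92.4% in mouse 1 (odds ratio 0.363) and 78.9% against 90.1% in mouse 2 (odds ratio 0.410). Genes with exactly 1 site of each kind are described below. The fold of a 5' UTR site ran from 0.490 over a median of 10.03 to 189.5 in mouse 1, and from 0.453 over 10.1 to 254.2 in mouse 2. The quartiles were 6.02 and 17.6 in mouse 1 and 5.92 and 17.3 in mouse 2. The commonest single value was 8.02 in mouse 1 (293 sites) and 7.70 in mouse 2 (299 sites), so the limit of 8 fell between the commonest values of the tables. At a limit of 7.5, chosen after seeing this, the shares were 66.7% and 66.1%.

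Sites often lay close together. A gene had 1 called 5' UTR site in 1861 cases in mouse 1 and 1863 in mouse 2, 2 sites in 1121 and 1078, and 3 or more in 1146 and 1230, up to 16 and 15. Another 5' UTR site lay within 10 bases of 40.8% of the sites in mouse 1 and 42.3% in mouse 2, and such neighbours are not independent measurements.

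The sites piled up at the annotated first base of the transcript. Distance was counted along the transcript strand from the gene start of the RefSeq table, with 0 for the first base, introns included. A start was found for 8599 sites of mouse 1 and 8842 of mouse 2, or 99.2% of each. The first base itself carried 282 sites in mouse 1 (3.28%) and 293 in mouse 2 (3.31%). The next base carried 43 and 42, the base before it 30 and 35, and no base from 1 to 20 carried more than 68 and 69. Further downstream the counts rose to 76 at base 26 in mouse 1 and 75 at base 27 in mouse 2, and fell to 11 and 12 at base 100. The median distance was 74 bases in both mice, with quartiles of 29 and 444 bases in mouse 1 and 29 and 427 in mouse 2. Within the first base and the 50 after it lay 2858 sites of mouse 1 (33.2%) and 2916 of mouse 2 (33.0%). Upstream of the start lay 5.62% and 5.84%, and more than 300 bases downstream 28.9% and 28.7%.

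Many genes have several starts, and the gene table gives a single start per gene. Against the nearest start of the promoter table, which could be matched for 7004 and 7237 sites, the peak at the first base held 423 sites in mouse 1 (6.04%) and 446 in mouse 2 (6.16%). The next base held 54 and 55 sites and the base before 41 and 44. The median distance was then 36 and 35 bases, and 46.8% and 47.1% lay within the first 50. The promoter table has no entries for chromosome 18. Genes on other chromosomes, such as Pdgfb, Fbl and Psmd3, also lacked a matched start, so chromosome 18 holds only a part of the unmatched sites. A start that is missing from both tables would place a site too far downstream. Every site with sequence was an adenosine, as described below, and 34.4% of the 32817 starts in the promoter table are adenosines. The part of base composition in the peak was not tested.

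**Figure D2:**
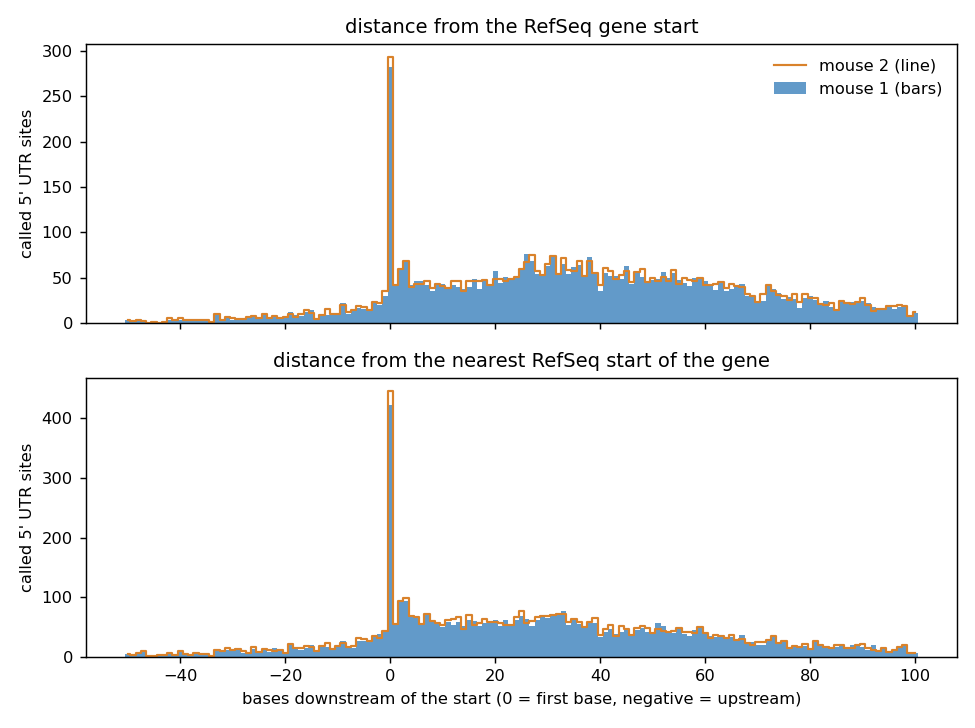
Number of called 5' UTR sites at each base from 50 upstream to 100 downstream of the gene start (top) and of the nearest annotated start (bottom), for mouse 1 (bars) and mouse 2 (line). Both mice have a sharp peak at base 0, of 282 and 293 sites in the top panel and 423 and 446 in the bottom panel. Downstream in the top panel, counts rise to 76 at base 26 in mouse 1 and 75 at base 27 in mouse 2. They fall to 11 and 12 at base 100.

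Sites at the first base were enriched more often than other 5' UTR sites. At the gene start 223 of 282 sites in mouse 1 (79.1%) and 219 of 293 in mouse 2 (74.7%) had a fold of at least 8, against 64.3% and 61.5% of the other 5' UTR sites. The odds ratio was 2.10 (Fisher's exact test, adjusted p = 3.2e-07) in mouse 1 and 1.85 (Fisher's exact test, adjusted p = 5.2e-06) in mouse 2. This test was added after the peak had been seen. Their median fold was 13.6 and 13.1, and 90.1% and 86.3% were called in the other mouse. The share enriched was lower further downstream, at 69.9% and 64.6% at bases 1 to 5, 65.4% and 62.2% at bases 6 to 20, 63.2% and 61.2% at bases 21 to 50, and 60.9% and 56.6% at bases 51 to 100. It was 60.4% and 58.4% from there to base 300 and 68.2% and 65.5% beyond 300 bases, where the interval did not overlap that of bases 51 to 100 in either mouse. These intervals treat sites of a gene as independent, which they are not, so their lack of overlap is no test. Differences among these bins were not tested.

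**Figure D3:**
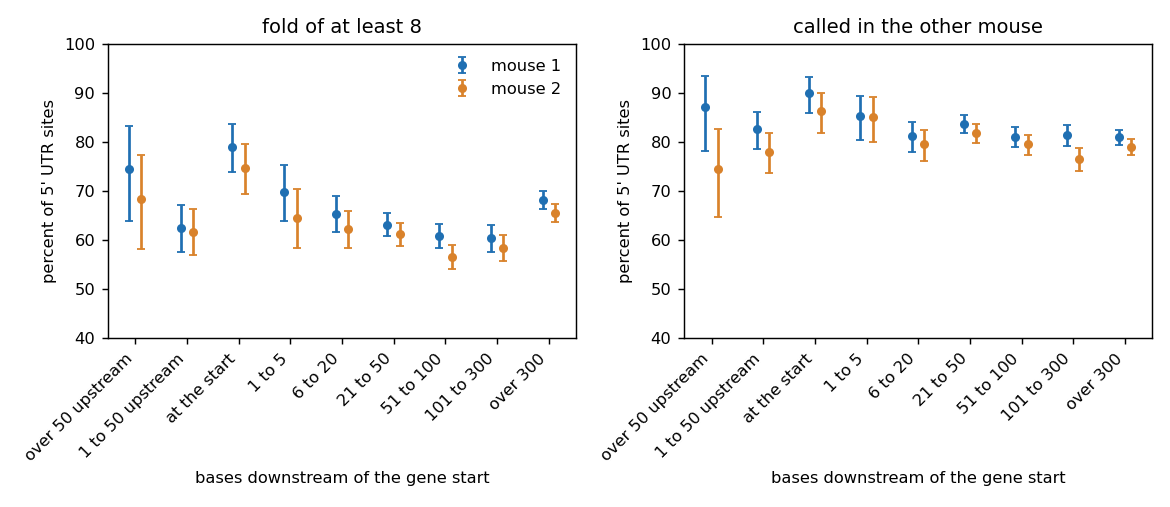
Percent of 5' UTR sites with a fold of at least 8 (left) and percent called in the other mouse (right), by distance from the gene start, with exact 95% intervals that cover counting error only; the vertical axis runs from 40 to 100. The share with a fold of at least 8 is 79.1% and 74.7% at the start and 60.9% and 56.6% at bases 51 to 100.

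The bases around 5' UTR sites differed from the m6A consensus. Sequence was at hand for 4290 sites of mouse 1 (49.5%) and 4475 of mouse 2 (50.2%), those inside a promoter window of 250 bases before to 50 bases after a start. Every site with sequence was an adenosine, in 5' UTRs and elsewhere, which checks the reading of the coordinates; the sources used here do not say whether the caller kept adenosines alone. The consensus was searched on the transcript strand as an adenosine with A or G before it, C after it, no C at the second base before and no G at the second base after. It held for 104 sites in mouse 1 (2.42%, 1.98% to 2.93%) and 121 in mouse 2 (2.70%, 2.25% to 3.22%). Of all 341826 adenosines in bases 0 to 47 of the table's starts, 7.94% had it.

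Coding and 3' UTR sites inside promoter windows were few but held the consensus more often. It was found in 41 of 164 coding sites in mouse 1 (25.0%) and 44 of 162 in mouse 2 (27.2%). For 3' UTR sites the counts were 27 of 32 (84.4%, 67.2% to 94.7%) and 23 of 29 (79.3%, 60.3% to 92.0%). For 5' UTR sites against both together the odds ratio was 0.0468 in mouse 1 (Fisher's exact test, adjusted p = 1.9e-50) and 0.0514 in mouse 2 (Fisher's exact test, adjusted p = 3.5e-48), a test added after the bases had been seen. These coding and 3' UTR sites lie near an annotated start and do not stand for all sites of their kind.

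Instead, a cytidine stood before the adenosine at 62.4% of the 5' UTR sites of mouse 1 (60.9% to 63.9%) and 61.9% of those of mouse 2 (60.4% to 63.3%). The share was 43.3% and 42.0% at the coding sites, 1 of 32 and 1 of 29 at the 3' UTR sites, and 30.8% over the adenosines of the first 48 bases named above. A guanosine followed at 47.7% and 47.5%, and the triplet CAG, searched on the transcript strand, was the middle of 31.9% and 31.6% of the sites, against 12.8% of those adenosines. At the gene start itself a cytidine stood before the site in 189 of 234 sites of mouse 1 (80.8%) and 201 of 245 of mouse 2 (82.0%), as in Ap2s1, Psmb3 and Dusp2 above. The consensus was found at 0 of 234 and 0 of 245, which allows a share of up to 1.28% and 1.22%. Of the 11277 adenosine starts in the promoter table as a whole, 55.9% had a cytidine before the adenosine and 25.7% formed CAG. That table also holds genes without a called site. Among genes with 1 start there and a called 5' UTR site, a cytidine stood before 586 of 848 adenosine starts in mouse 1. In mouse 2 it stood before 592 of 862, and both shares exceed 55.9%. A site at the start itself, called in 326 and 337 of these genes, could bring a gene into this set. These shares are therefore not an independent background. The part of start composition in the shares at called starts was not tested.

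**Figure D4:**
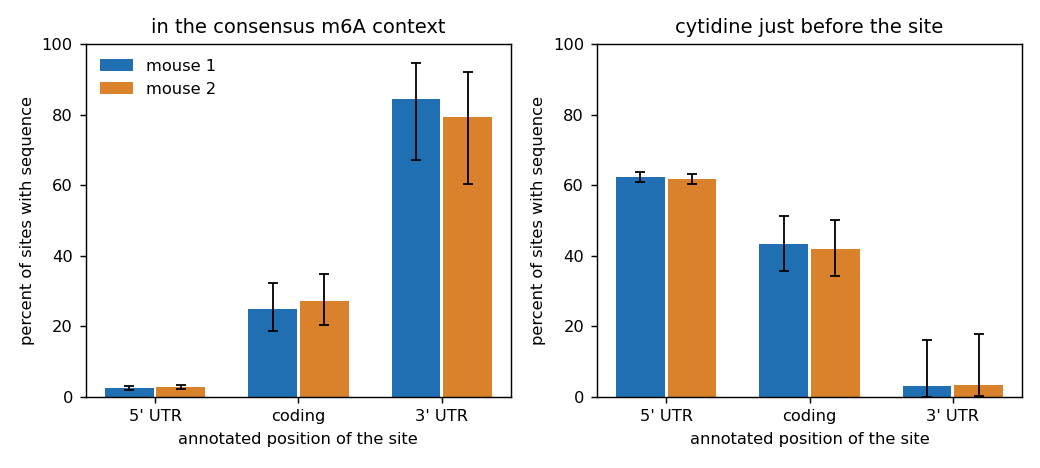
Percent of called sites with sequence that lie in the consensus m6A context (left) and that have a cytidine just before them (right), by annotated position and mouse, with exact 95% intervals that cover counting error only. The 5' UTR bars stand at 2.42% and 2.70% on the left and at 62.4% and 61.9% on the right, while the 3' UTR bars rest on 32 and 29 sites.

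Among genes with a called 5' UTR site, an annotated adenosine start was called more often after a pyrimidine than after a purine. Genes with 1 start in the promoter table and at least 1 called 5' UTR site numbered 2703 in mouse 1 and 2735 in mouse 2, of which 848 and 862 start with an adenosine. A site was called at exactly that base in 326 (38.4%) and 337 (39.1%) of them. After a cytidine the counts were 257 of 586 (43.9%) and 271 of 592 (45.8%), and after a thymidine 60 of 156 (38.5%) and 58 of 162 (35.8%). After a guanosine they were 4 of 54 (7.41%) and 4 of 57 (7.02%), and after an adenosine 5 of 52 (9.62%) and 4 of 51 (7.84%). A gene could enter these counts through the site at its start alone, which can raise the shares. Adenosine starts of genes without a called 5' UTR site were left out. These shares were not tested, and whether the annotated base is the one these macrophages use in each gene is not known.

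The genes were then split by where else they were called. In mouse 1, 1222 genes (29.6%) had called sites in the 5' UTR and nowhere else in the gene, and 2808 (68.0%) also had coding or 3' UTR sites. In mouse 2 these were 1204 (28.9%) and 2859 (68.5%). The remaining 98 and 108 genes had 5' UTR sites with sites of other kinds, such as introns. Of the genes of the first class, 959 were in it in both mice, while 97 moved from the first class in mouse 1 to the second in mouse 2 and 69 the other way. A class rests on which sites passed the caller in that mouse.

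The strongest 5' UTR site of a gene was about as strong in both classes. Its median fold was 14.6 in genes with only 5' UTR sites and 14.0 in genes that also had others in mouse 1, and 14.4 in both classes in mouse 2. It was enriched in 82.2% against 81.2% of genes in mouse 1 (odds ratio 1.07, Fisher's exact test, adjusted p = 0.56) and in 78.9% against 79.0% in mouse 2 (odds ratio 0.995, Fisher's exact test, adjusted p = 0.97). When every 5' UTR site was counted in place of the strongest, sites of the first class were enriched less often, with 62.3% against 66.0% in mouse 1 (odds ratio 0.851, adjusted p = 0.0013) and 58.7% against 63.4% in mouse 2 (odds ratio 0.820, adjusted p = 5.0e-05), both by Fisher's exact test. The strongest site was called in the other mouse for 83.6% against 82.5% of genes in mouse 1 and 82.6% against 82.2% in mouse 2 (Fisher's exact test, adjusted p = 0.53 and 0.89). Genes had 2.09 against 2.08 sites on average in mouse 1 and 2.15 against 2.12 in mouse 2.

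The classes differed in where that site lay. In genes with only 5' UTR sites it lay a median of 52.5 bases from the gene start in mouse 1 and 52 in mouse 2, against 74 bases in the other class in both. Within the first base and the 50 after it lay 41.4% against 34.9% in mouse 1 (odds ratio 1.32, Fisher's exact test, adjusted p = 1.1e-04) and 41.5% against 34.6% in mouse 2 (odds ratio 1.34, Fisher's exact test, adjusted p = 6.2e-05). The difference did not pass the test in mouse 1 with genes of a single 5' UTR site (odds ratio 1.19, adjusted p = 0.13) or with sites of a score of at least 20 (1.16, adjusted p = 0.069), nor in mouse 2 with the nearest start (1.16, adjusted p = 0.085), all by Fisher's exact test. Exactly at the start lay 6.06% against 4.06% and 6.83% against 4.34%, which was not tested. Genes of the first class also spanned less of the genome, with a median of 16596 against 21144.5 bases in mouse 1 and 16752 against 21367.5 in mouse 2. A span under 10 kb was found for 34.5% against 25.8% (odds ratio 1.51, adjusted p = 8.2e-08) and 34.5% against 25.3% (1.56, adjusted p = 1.2e-08), by Fisher's exact test added after seeing the data. The part of gene length in the difference in distance was not tested.

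The bases around the strongest site were alike in kind. The consensus was found in 1.96% against 1.66% of genes with sequence in mouse 1 and 1.41% against 1.88% in mouse 2. A cytidine before the site was found in 68.3% against 71.9% and 69.4% against 70.4%, and these shares were not tested.

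**Figure D5:**
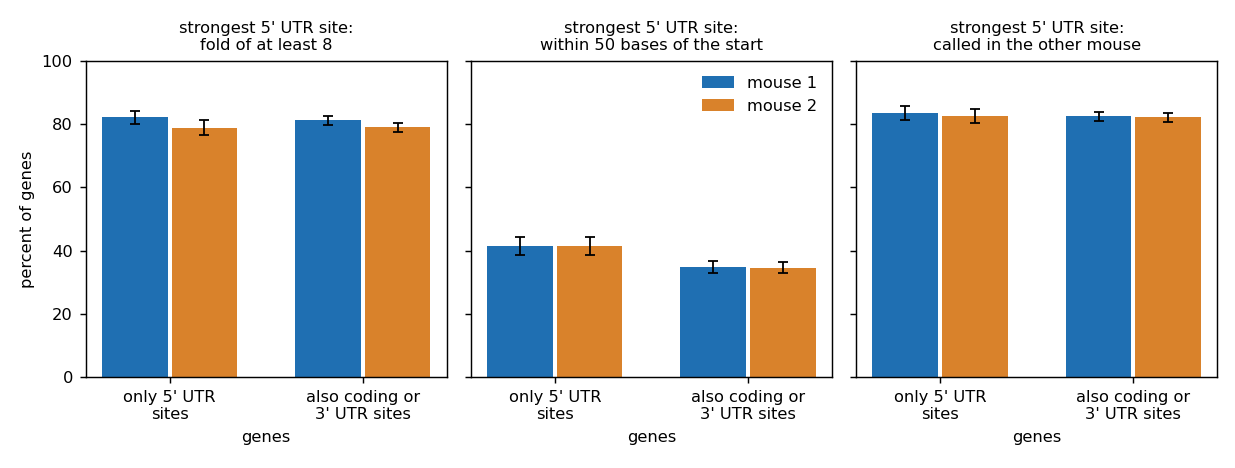
Percent of genes whose strongest 5' UTR site had a fold of at least 8 (left), lay within 50 bases of the gene start (middle) or was called in the other mouse (right), for genes with only 5' UTR sites and genes that also had coding or 3' UTR sites, by mouse, with exact 95% intervals that cover counting error only. The middle panel shows 41.4% and 41.5% against 34.9% and 34.6%; the other panels differ by at most 1.08 percentage points.

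In genes with both kinds of site, the 5' UTR site was usually the weaker. The strongest 5' UTR site exceeded the strongest coding or 3' UTR site in 628 of 2808 genes of mouse 1 (22.4%) and 608 of 2859 of mouse 2 (21.3%), with a median difference of -1.22 and -1.28 on the log2 scale. A gene with several sites of a kind offers more values to take the strongest from. With exactly 1 site of each kind, the 5' UTR site was the higher in 118 of 259 genes (45.6%, 39.4% to 51.8%) and 115 of 250 (46.0%, 39.7% to 52.4%), and the median difference was -0.17 and -0.04. Both intervals include equal shares.

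The highest folds of single shared 5' UTR sites were found in genes that also had other sites. In each sentence the folds are those of mouse 1 and mouse 2. Pdgfb, the gene of the growth factor PDGF-B, had 173.5 and 199.3 at position 80014283 of chromosome 15, which lies 10331 bases from the gene start. No start of the promoter table was matched for Pdgfb, so its distance to a nearer start is not known. Ybx1, which encodes a Y-box RNA-binding protein, had 173.7 and 161.0, and Commd1, a gene of copper handling that also restrains NF-kB, 138.7 and 228.2. Their sites, shown above, lie 13 and 25 bases after a start of the promoter table. The tetraspanin gene Tspan31 had 136.4 and 120.4 at a first base. Jun, an AP-1 subunit induced early by LPS, had 134.7 and 98.9 at position 95051388 of chromosome 4, 834 bases into its transcript.

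The 10 highest also held 5 further genes, and the animals were furthest apart in Pcdh7. The protocadherin gene Pcdh7 had 78.2 and 254.2, Rbbp6, which encodes a ubiquitin ligase, 87.2 and 156.0, and Tlnrd1, which holds a talin rod domain, 174.5 and 93.4. Tor1aip2, a partner of torsin ATPases at the nuclear envelope and endoplasmic reticulum, had 170.1 and 114.1. Man1c1, a mannosidase gene of glycoprotein trimming, had 123.3 and 97.3. By distance to the gene start, all 10 sites lay more than 300 bases downstream, but 4 of them (Commd1, Ybx1, Tspan31 and Rbbp6) lay within 53 bases of a start in the promoter table.

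Among the 959 genes with only 5' UTR sites in both mice, 6 of the 10 highest lay within 50 bases of the gene start. Ap2s1, the small subunit of the clathrin adaptor AP-2, had 95.2 and 105.1 at the first base. Psmb3, a beta subunit of the proteasome core, had 70.9 and 104.6, also at the first base. Pdap1 had 88.2 and 77.0 and Tma7, named for its association with the translation machinery, 62.3 and 79.4, each 3 bases after the start. Dcxr, a reductase of sugars and dicarbonyls, had 165.5 and 52.5 at base 23, a difference between mice well above the median one.

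Pdcd6ip, the ESCRT partner also known as ALIX, had 75.2 and 84.7 at base 42. Selenof, a selenoprotein of the endoplasmic reticulum, had 108.4 and 101.4 at base 287, and Hmgb2, a chromatin protein, 53.2 and 111.7 at base 95. Fbl, the methyltransferase fibrillarin of the nucleolus, had 101.3 and 49.1, and Sri, the calcium-binding sorcin, 65.9 and 98.7.

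The genes with the most shared 5' UTR sites were Tor1aip2 with 15, Capg and Brd2 with 13, and St3gal1 and Cdkn2c with 12. In Tor1aip2 folds ran from 9.03 over a median of 38.7 to 170.1 in mouse 1 and from 5.30 over 25.8 to 114.1 in mouse 2, and 14 of the 15 were enriched in both. In Brd2, a bromodomain gene, the 13 sites lay within 1054 bases and 12 were enriched in both, with folds of 7.69 to 76.7 and 6.10 to 50.1. In Cdkn2c, an inhibitor of cyclin-dependent kinases, 12 sites within 1488 bases had folds of 2.15 to 101.3 and 2.12 to 79.9. The sites of the actin-capping gene Capg and the sialyltransferase gene St3gal1 were spread over 10859 and 62897 bases of the genome, introns included. Capg had the largest ratio of highest to lowest fold among the 5 in both mice, from 0.771 to 125.4 in mouse 1 and from 0.738 to 93.4 in mouse 2.

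Gene lists were described beside all 7827 genes with a site in both mice. Of those genes, 3632 (46.4%) had a 5' UTR site in both, and 959 of the 3632 (26.4%) had 5' UTR sites only. Of 3544 genes with a shared 5' UTR site, 2553 (72.0%) had one that was enriched in both mice. No list was tested.

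Genes of energy metabolism and protein turnover often had 5' UTR sites alone. Of 63 respiratory chain and ATP synthase genes, 55 (87.3%) had a 5' UTR site, and 42 of the 55 (76.4%) had sites of no other kind in either mouse. The strongest shared sites of that list lay within 50 bases of the start in 31 of 53 genes (58.5%), against 37.4% over all genes. Ndufb8, of complex I, had 27.0 and 101.7 at base 10, Uqcrh, of complex III, 67.2 and 35.6 at base 11, and Atp5pb, of ATP synthase, 41.5 and 44.3 at the first base. Of 31 proteasome subunits, 25 (80.6%) had a 5' UTR site, 16 of them (64.0%) alone, and 22 of 25 had an enriched shared one. Their median folds were 29.4 and 20.9, against 15.0 and 15.4 over all genes. After Psmb3, the regulatory subunits Psmd4 (56.5 and 73.2) and Psmd3 (76.2 and 45.3) were highest, at bases 45 and 12.

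Ribosomal protein genes were described for both kinds of ribosome. Of 27 cytosolic ribosomal protein genes with a site, 19 (70.4%) had a 5' UTR site and 13 of the 19 (68.4%) had 5' UTR sites alone. The strongest shared site lay within 50 bases of the start in 7 of 19 (36.8%). The highest were the paralogue Rps27l (65.5 and 68.2), Rpl36 (34.1 and 48.1) and Rpl27 (21.7 and 40.4). Of 64 mitochondrial ribosomal protein genes 37 (57.8%) had one, 12 of them (32.4%) alone, and the strongest shared site lay within 50 bases of the start in 25 of 36 (69.4%). Mrps21 had 33.8 and 80.9 at base 10, Mrps28 31.8 and 43.0 at base 43, and Mrps18c 85.2 and 21.7 at a position 18 bases upstream of the start. Of 52 genes matched by the symbols of translation factors, 24 had a 5' UTR site and 11 of these had 5' UTR sites alone. Eif4g2, a homologue of the scaffold eIF4G, had 50.1 and 39.5 at base 10. Eif2ak2, the kinase PKR, which the symbol match takes in and the interferon list also holds, had 52.1 and 33.7, and Eef1e1 54.2 and 27.9.

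Genes of the LPS response had 5' UTR sites more often than the 46.4% over all genes with a site. The same held for lists outside that response, such as respiratory chain and ATP synthase genes (87.3%) and proteasome subunits (80.6%). Translation factors (46.2%) and the m6A and m6Am machinery (47.6%) stood near 46.4%. The lymphocyte list and the stromal, endothelial and erythroid list had none. Of genes with a 5' UTR site in both mice, 26.4% had such sites alone. That share was higher for cytokines and chemokines and lower for the NF-kB, interferon and inducible transcription factor lists. Of 31 cytokine and chemokine genes 24 (77.4%) had a 5' UTR site, 22 of 24 an enriched shared one, and 9 (37.5%) had 5' UTR sites alone. These 9 were Cxcl1, Cxcl2, Cxcl3, Ccl4, Ccl12, Ccl22, Il10, Il12b and Il27, named after their class was seen. The neutrophil chemokine Cxcl3 had 33.6 and 78.0 at base 2, Cxcl2 51.5 and 46.5 at a position 26 bases upstream, and Cxcl1 12.4 and 29.8 at a position 2 bases upstream of the start. Il12b, Ccl12 and Ccl22 had their strongest shared site at the first base itself, at 9.44 and 8.74, 11.8 and 13.1, and 14.7 and 15.8. Tgfb1 (88.6 and 64.0), a regulator of inflammation, and Tnf (49.5 and 42.5, base 3), the central inflammatory cytokine of LPS-treated macrophages, also had coding or 3' UTR sites. Cxcl9 had a site at the first base with 2.60 and 2.65, below the limit in both.

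Of 31 genes of the NF-kB family and its feedback inhibitors 22 had a 5' UTR site, and Nfkbid was the single gene (4.55%) with 5' UTR sites alone in both mice. Dusp2, a phosphatase of MAP kinases, had 128.8 and 58.6 at the first base, and Socs1, which restrains cytokine receptors, 71.3 and 72.7 at base 3. Map3k8, the kinase Tpl2 that links Toll-like receptors to ERK, had 39.7 and 32.6 at the first base. The site of Nfkb2 was far apart between the mice, with 3.18 and 35.6. Of 56 interferon-stimulated genes 34 had a 5' UTR site, 4 of them (11.8%) alone. Ifi35 (54.2 and 83.6) and the immunoproteasome subunit Psmb9 (35.1 and 64.0) were highest. Of 30 immediate-early and inducible transcription factors 18 had one, and 0 of 18 had 5' UTR sites alone, which allows a share of up to 16.7%. After Jun, Mafk (56.5 and 38.3) and Btg2 (51.1 and 40.4) were highest.

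Of 21 genes of the m6A and m6Am machinery with a site, 10 had a 5' UTR site. Alkbh5, an m6A demethylase, had 47.1 and 45.3, the reader Hnrnpa2b1 35.6 and 28.2 at the first base of a promoter-table start, and the writer subunit Wtap 30.1 and 17.7. Of 13 genes known for upstream open reading frames or the stress response 10 had one, with Gch1, the first enzyme of tetrahydrobiopterin synthesis, at 47.6 and 34.9 at the first base. Slc35a4 (25.1 and 46.2) and Eif5 (29.7 and 25.7) followed.

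Of the 15 macrophage markers 11 had a 5' UTR site, and Adgre1, which encodes F4/80, was the single gene with 5' UTR sites alone in both mice. Cybb, the catalytic subunit of the phagocyte oxidase, had 23.4 and 27.3, Csf1r, the receptor of macrophage colony-stimulating factor, 15.0 and 31.5, and Spi1, the lineage factor PU.1, 21.7 and 19.3. The 6 neutrophil genes were Ngp, Prtn3, S100a9, Camp, S100a8 and Ltf, and all of them but S100a9 had sites in the 5' UTR alone in both mice. Ngp had 41.8 and 33.5, Prtn3 42.1 and 15.9, and S100a9 19.0 and 30.1. In RNA of a whole culture, a few cells of another type and a low level in all cells cannot be told apart.

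The strongest sites called in a single mouse lay mostly below the usual score of shared sites. The highest folds of 5' UTR sites called in mouse 1 alone included those of Rtp4 (60.2) and Gosr1 (42.1), with scores of 40.2 and 19.4. In mouse 2 alone they were in Dap (75.1), Dad1 (63.6) and Puf60 (60.7), with scores of 18.1, 12.6 and 27.8. Of these named sites, all but that of Rtp4 had a score below 31.7, the lower of the median scores of shared sites. With 1 IP library per mouse, a site missing from a table cannot be told apart from a site that fell below the caller's limit.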

How the data were processed

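Each mouse has 1 deposited table of single-base sites. Per the file headers, the score is a value that the authors gave each site, and the fold is their ratio of IP to input read starts. The submitters' processing notes list UMI-tools 0.5.1, STAR 2.6.0c and cutadapt 2.7, and the builds mm10 and hg38. The sources used here do not give the site caller, the definition of its score or the annotation, and depth is unknown.

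The end of each interval was taken as the position. Of 4667 genes with a 5' UTR site, 4662 (99.9%) were matched by symbol in the RefSeq table of GRCm38.p6. Shares have exact (Clopper-Pearson) 95% intervals. Fisher's exact test (two-sided) was run within each mouse, with Benjamini-Hochberg adjustment over 14 tests and a threshold of 0.05. Genes and sites are not replicates, so p-values say nothing of the spread between animals, and no test was made between mice. Limits for a count of 0 allow 3 counts. The tests of consensus context, of sites at the start and of gene span were added after seeing the data, and members and lists were chosen with earlier results of these data known.

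Genes were named by rule: the 10 whose shared 5' UTR site had the highest log2 fold averaged over mice, the 10 highest with 5' UTR sites only in both mice, the 5 with the most shared sites, 3 per list and 3 per mouse called in that mouse alone, without predicted genes. A gene that this rule picks is not reported here. Members of the cytokine, NF-kB, macrophage and neutrophil lists beyond these 3 were named after their values were seen, and so were Tnfaip8l2 and Txnrd1. Alternatives covered the fold limit, score, start, distance, class and site chosen. The gene classing and the distances were tested on simulated data. Python 3.11.15, pandas 2.3.3, NumPy 2.4.6, SciPy 1.17.1 and Matplotlib 3.10.9 were used.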

Additional observations from a re-analysis of the deposited data

How the results depend on the processing

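Of 83 alternative values, 62 kept their direction and their side of the threshold or stayed within the spread allowed, 3 were weaker, 1 was stronger, 16 moved and 1 reversed. The share of enriched 5' UTR sites was 29.7% and 28.6% at a fold limit of 16, 89.3% and 87.7% at 4, and 66.7% and 66.1% at 7.5, added after seeing the data (mouse 1 and mouse 2). The share within 50 bases of the start was 46.8% and 47.1% with the nearest start and 34.3% and 34.2% with a score of at least 20. That score gave a consensus share of 1.91% and 1.95% and a cytidine before the site in 65.1% and 64.7%, and a fold of at least 8 gave 69.5% and 69.8% for the cytidine. For genes with only 5' UTR sites against the other class, the odds ratio of a site near the start fell short of the threshold at 1.19 in mouse 1 with genes of 1 such site, at 1.16 in mouse 1 with the higher score and at 1.16 in mouse 2 with the nearest start. With all 5' UTR sites in place of the strongest, the odds ratio of an enriched site reversed to 0.851 in mouse 1 and passed the threshold at 0.820 in mouse 2. With a mouse left out, the number of 5' UTR positions was 8671 to 8913. The enrichment of 5' UTR sites against coding and 3' UTR sites kept its direction under each alternative run. Its odds ratio was 0.363 in mouse 1 and 0.410 in mouse 2 with 1 site per gene and kind of position. A gene with more sites of a kind offered more values to take that site from. In genes with exactly 1 site of each kind, the 5' UTR site was the higher in 45.6% in mouse 1 and 46.0% in mouse 2. Both intervals include equal shares. No paired analysis was possible because the deposited fold already sets the IP against the input of the same mouse, and no values per library were used. Without read numbers, the precision of a single fold is not known.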
